A study of Oryza sativa with 4 samples.

Results

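The WRKY genes described here are 10 rice genes with known roles in defence, chosen by their identifiers in the Rice Annotation Project from the 37858 genes of a table of expected counts. They are WRKY13, WRKY24, WRKY28, WRKY45, WRKY53, WRKY62, WRKY70, WRKY71, WRKY72 and WRKY76, and all 10 had enough counts to be tested. RNA was sequenced from fully developed leaves of the cultivar Nipponbare at the vegetative stage. There were 2 libraries from plants grown from seeds matured at 30 °C (heat-developed seeds, HDS) and 2 from plants grown from seeds matured at 25 °C (control seeds, CS). Plants of both treatments were themselves grown under natural conditions, so the temperature during grain filling was the difference by design. Each replicate was a single plant, and with 2 plants per treatment 1 library can decide a value.

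WRKY proteins are transcription factors that bind W-box elements in promoters, including those of defence genes and of other WRKY genes. In rice, some of them act downstream of chitin perception and MAP kinases, some act in salicylic acid signalling, and others restrain defence. WRKY24, WRKY53 and WRKY70 belong to group I, whose proteins carry a pair of WRKY domains. WRKY28, WRKY62, WRKY71 and WRKY76 belong to group IIa, which includes known repressors of basal defence. WRKY45, of group III, is a main activator of defence in the salicylic acid pathway.

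The libraries held between 16605260 and 17298384 expected counts in HDS plants and between 15444235 and 17214538 in CS plants. Levels are given in expected counts, or in CPM, which are counts scaled for library size with edgeR's TMM factors. CPM is not corrected for gene length, so levels are compared between treatments and not between genes. Of the 5 genes listed as leaf markers, all were detected in every library, with a summed level of 13065 and 15196 CPM in HDS plants, against 24100 and 14432 CPM in CS plants. The gene listed as a marker of shoot meristem had 0 counts in all 4 libraries, and of 2 listed root genes 1 had 0 counts and the other between 3.22 and 4.79 CPM. The gene listed as a marker of leaf senescence had 26.6 and 11.8 CPM in HDS plants, against 1.85 and 2.36 CPM in CS plants. In whole leaves, fewer cells of a type and less RNA per cell cannot be told apart.

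The question was whether the transcripts of these regulators differ in level between leaves of HDS and CS plants. The study's criteria call a gene when edgeR's exact test gives an unadjusted P under 0.05 and the log2 fold change is 0.37 or more in size. By these criteria 5 of the 10 genes were lower in HDS plants, WRKY24, WRKY28, WRKY53, WRKY70 and WRKY71, and 0 were higher. Of all 29698 genes with at least 1 count, 3.7% were lower by these criteria and 4.18% were higher, and of the 22184 genes with enough counts, 4.48% were lower and 4.67% were higher. In edgeR's quasi-likelihood test, with P-values adjusted by the Benjamini-Hochberg method over the 22184 genes tested, 2 of the 10 had an adjusted P under 0.05 and were lower, WRKY24 and WRKY71, against 0.451% of all genes tested that were lower. By this test 0 of the 10 were higher, against 0.248% of all genes, and 0 were higher at an unadjusted P under 0.05 with a log2 fold change of 0.37 or more, in this test or in DESeq2. By the study's criteria 3 of the 5 leaf markers were lower and the senescence marker was higher in HDS plants. In the quasi-likelihood test 0 of the leaf markers passed, and the senescence marker did (log2 fold change 3.18, adjusted P = 0.0470). The part of these markers in the WRKY differences was not tested. Both HDS libraries lay below both CS libraries in 5 of the 10 genes, where 19.3% of the genes tested did so, and above both in 1, where 21.2% did so. The median log2 fold change was -0.20 over the 10 genes and 0.01 over all genes tested.

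**Figure D1:**
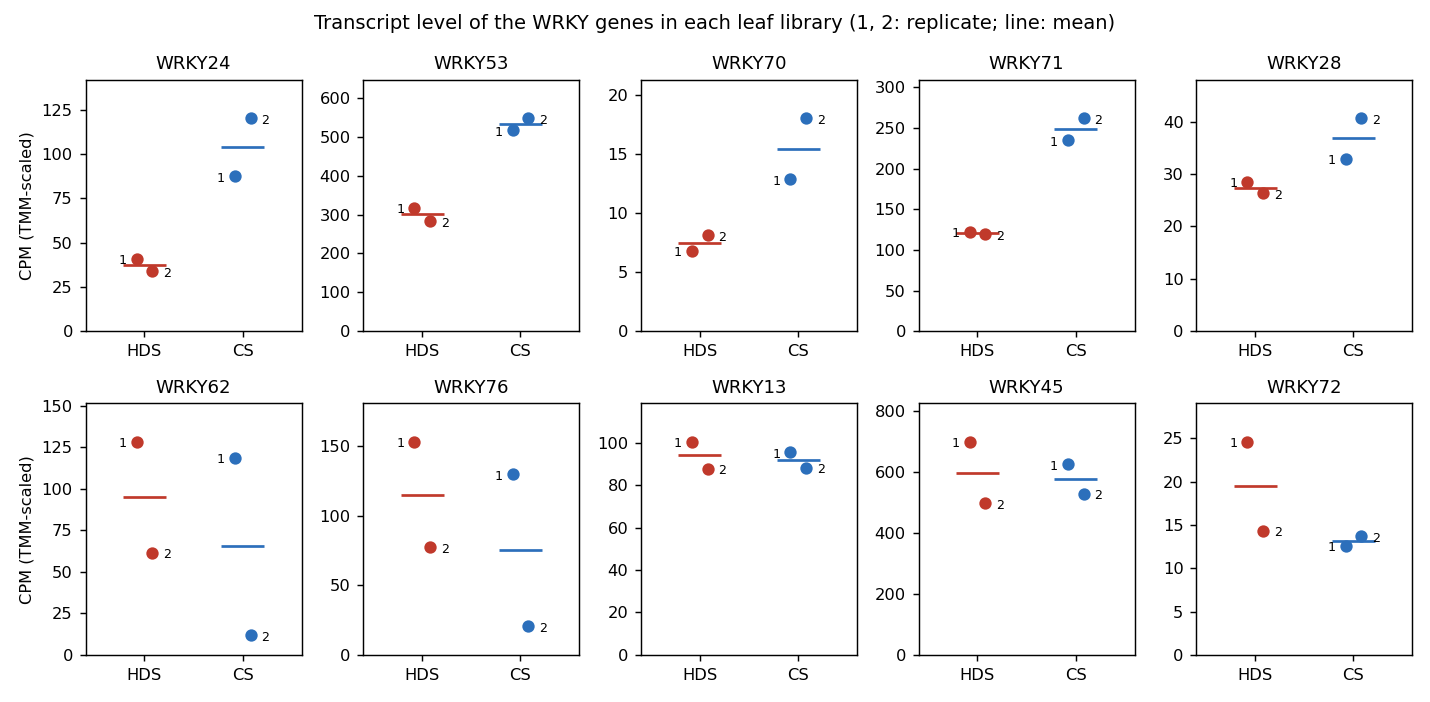
Level of each of the 10 WRKY genes in CPM (vertical axes, linear, starting at 0) in the HDS libraries (red, left) and the CS libraries (blue, right); points are single libraries labelled by replicate number and lines are means of 2. In WRKY24, WRKY53, WRKY70, WRKY71 and WRKY28 both HDS points lie below both CS points, whereas WRKY62 and WRKY76 are lowest in CS replicate 2 and overlap between treatments.

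All 3 genes of group I were lower in HDS leaves by the criteria of the study. WRKY24 (Os01g0826400, chromosome 1), which is known to repress gibberellin and abscisic acid responses in aleurone cells and to act in the response to blast fungus, had 731 and 571 counts in the HDS libraries, against 1281 and 2089 in the CS libraries. The lower CS library was still 2.15 times as high as the higher HDS library after scaling. WRKY24 averaged 37.4 ± 4.91 CPM in HDS plants and 104 ± 23.2 CPM in CS plants (SD, n = 2 each). Its log2 fold change, -1.48 with a standard error of 0.27, was the lowest of the 10, a level 2.79-fold lower in HDS plants (edgeR's quasi-likelihood test, adjusted P = 0.0404).

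WRKY53 (Os05g0343400, chromosome 5) is induced by fungal elicitors, and its protein is a target of MAP kinases. It had 5692 and 4760 counts in the HDS libraries, against 7546 and 9506 in the CS libraries, which is 300 ± 25.0 CPM in HDS plants and 532 ± 22.4 CPM in CS plants (SD, n = 2 each). The treatments did not overlap, and each pair of replicates was close, the ratio of replicate 1 to replicate 2 being 1.13 in HDS plants and 0.942 in CS plants. WRKY53 had a log2 fold change of -0.83 (standard error 0.10) and an exact P of 6.83e-06 in edgeR, which met the study's criteria. The adjusted quasi-likelihood P in edgeR was 0.107, so this gene was not called there.

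WRKY70 (Os05g0474800, chromosome 5), known for tuning the balance of growth and defence when rice is attacked by stem borers, was the least counted of the group. It had 122 and 137 counts in the HDS libraries, against 188 and 313 in the CS libraries. Both HDS libraries were low, and the CS libraries differed from each other more than the HDS libraries did. The mean was 7.48 ± 0.933 CPM in HDS plants and 15.5 ± 3.66 CPM in CS plants (SD, n = 2 each). The log2 fold change of -1.05 (standard error 0.27) met the study's criteria (exact P = 0.000768 in edgeR) and had an adjusted quasi-likelihood P of 0.180 in edgeR. Without HDS replicate 1 the exact test gave P = 0.0541, which ended the call. Without CS replicate 1 the log2 fold change was -0.87 for WRKY53 and -1.28 for WRKY70. Without CS replicate 2 it was -0.80 for WRKY53 and -0.80 for WRKY70. Summed over the 3 genes of group I, which WRKY53 dominates, the level was 366 and 325 CPM in HDS plants, against 617 and 686 CPM in CS plants.

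The 4 genes of group IIa did not share a single pattern over the 4 libraries. WRKY71 (Os02g0181300, chromosome 2), which represses gibberellin signalling in aleurone cells, had the closest HDS replicates of the 10 genes. It had 2182 and 2003 counts in the HDS libraries, against 3432 and 4547 in the CS libraries, or 120 ± 2.1 CPM in HDS plants and 248 ± 19.3 CPM in CS plants (SD, n = 2 each). Both HDS libraries therefore lay far below both CS libraries, and the lower CS library was 1.93 times as high as the higher HDS library after scaling. WRKY71 had a log2 fold change of -1.05 (standard error 0.08), a level 2.07-fold lower in HDS plants (edgeR's quasi-likelihood test, adjusted P = 0.0404). Its expected counts differed from whole numbers by at most 0.03 counts, and the counts of the other 9 genes were whole. How many reads also matched other genes was not tested.

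The adjusted calls of WRKY24 and WRKY71 were lost when either HDS library was dropped. In edgeR's quasi-likelihood test the lone HDS library is then taken to vary like the CS libraries, so these fits cannot decide the calls. Without HDS replicate 1 the log2 fold change was -1.62 for WRKY24 and -1.07 for WRKY71. Without HDS replicate 2 it was -1.35 for WRKY24 and -1.03 for WRKY71. With total counts in place of TMM scaling, the same test gave an adjusted P of 0.0811 for WRKY24 and 0.0757 for WRKY71. The log2 fold changes stayed between -1.69 and -1.25 for WRKY24 and between -1.13 and -0.98 for WRKY71 whichever library was dropped, and both genes met the study's criteria each time.

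WRKY28 (Os06g0649000, chromosome 6), a negative regulator of basal defence against bacterial blight, differed least among the 5 lower genes. It had 510 and 443 counts in the HDS libraries, against 482 and 706 in the CS libraries. After scaling, the lower CS library was only 1.16 times as high as the higher HDS library. The mean was 27.4 ± 1.55 CPM in HDS plants and 36.8 ± 5.46 CPM in CS plants (SD, n = 2 each), a log2 fold change of -0.43 (standard error 0.16). Its exact P of 0.0476 in edgeR was just inside the limit, and its adjusted quasi-likelihood P was 0.488. The log2 fold change was -0.49 without HDS replicate 1, -0.37 without HDS replicate 2, -0.58 without CS replicate 1 and -0.29 without CS replicate 2. WRKY28 met the study's criteria without CS replicate 1 and missed them when any other library was dropped. With total counts in place of TMM scaling the exact test gave P = 0.117.

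WRKY62 and WRKY76, the other genes of group IIa, lie next to each other on chromosome 9, with 0 protein-coding genes between them in the RefSeq annotation of the assembly ASM3414082v1. Disruption or silencing of these genes in rice is known to raise resistance to pathogens, and the protein of WRKY62 binds the receptor kinase XA21. WRKY62 (Os09g0417800) had 2295 and 1032 counts in the HDS libraries, against 1736 and 203 in the CS libraries. WRKY76 (Os09g0417600) had 2738 and 1299 counts in the HDS libraries, against 1894 and 355 in the CS libraries. In both genes CS replicate 2 was far below the other 3 libraries, and CS replicate 1 lay between the HDS libraries, so the treatments overlapped.

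The spread between replicates was larger than the difference between treatments in both genes. WRKY62 averaged 94.8 ± 47.3 CPM in HDS plants and 65.2 ± 75.7 CPM in CS plants (SD, n = 2 each), and its log2 fold change was 0.54 with a standard error of 1.75. For WRKY76 the means were 115 ± 53.6 CPM in HDS plants and 75.0 ± 77.2 CPM in CS plants (SD, n = 2 each), and the log2 fold change was 0.62 with a standard error of 1.42. The adjusted quasi-likelihood P in edgeR was 0.900 for WRKY62 and 0.863 for WRKY76. The values also turned on which HDS plant was kept. Without HDS replicate 1 the log2 fold change was -0.093 for WRKY62 and 0.037 for WRKY76. Without HDS replicate 2 it was 0.98 for WRKY62 and 1.03 for WRKY76. Which CS plant was kept set both size and direction. Without CS replicate 1 the log2 fold change was 3.01 for WRKY62 and 2.49 for WRKY76, whereas without CS replicate 2 it was -0.34 for WRKY62 and -0.19 for WRKY76. With a single CS library left, the spread between CS plants is not measured, so no P-value is given for these fits.

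Between the HDS replicates, WRKY62 was 2.09-fold and WRKY76 1.98-fold higher in replicate 1. Between the CS replicates, WRKY62 was 10.2-fold and WRKY76 6.33-fold higher in replicate 1. Only 0.505% of the genes tested had CS replicates that differed in either direction by as much as those of WRKY62, and 1.00% by as much as those of WRKY76. A gap in both treatments at least as large as that of WRKY76, with replicate 1 the higher each time, was found in 26 of the 22184 genes tested (0.117%). These genes were singled out after their values were seen, so the shares are descriptions. The replicate numbers do not mark a shared batch in the labels, so no order between replicate 1 and replicate 2 is implied.

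**Figure D2:**
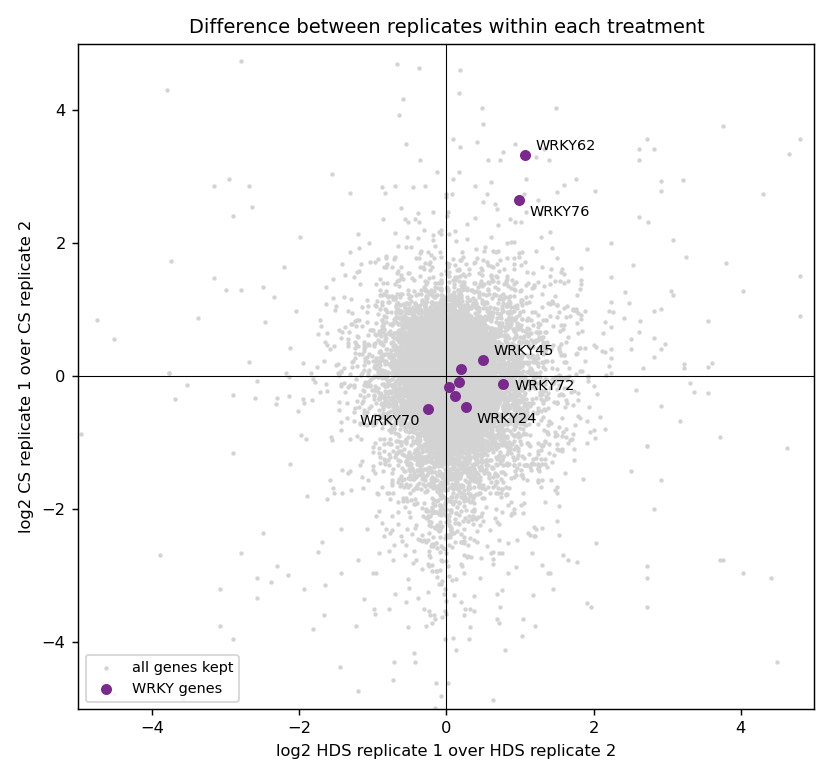
Log2 ratio of replicate 1 to replicate 2 in HDS plants (horizontal axis) and in CS plants (vertical axis) for all genes tested (grey) and the 10 WRKY genes (purple); the axes end at 5 log2 units, and the few genes beyond them are not drawn. WRKY62 and WRKY76 sit apart at the top right, at 3.33 and 2.66 on the CS axis, while the other 8 lie close to the centre.

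The genes on either side of the pair did not share this pattern. The next gene of the table before WRKY76, Os09g0417500, had 75 and 53 counts in the HDS libraries, against 54 and 76 in the CS libraries. After WRKY62 came Os09g0418000, with 786 and 954 counts in the HDS libraries, against 795 and 515 in the CS libraries. After scaling, its CS replicate 1 exceeded CS replicate 2 by 0.87 log2 units, but its HDS replicates stood in the opposite order. Summed over WRKY62 and WRKY76 the level was 281 and 138 CPM in HDS plants, against 248 and 32.2 CPM in CS plants. Summed over WRKY28 and WRKY71 it was 150 and 145 CPM in HDS plants, against 268 and 303 CPM in CS plants.

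The remaining genes did not pass either test. WRKY13 (Os01g0750100, chromosome 1), which raises resistance to blast and bacterial blight when overexpressed, had 1796 and 1477 counts in the HDS libraries, against 1395 and 1528 in the CS libraries. Its means of 94.0 ± 8.94 CPM in HDS plants and 91.8 ± 5.21 CPM in CS plants (SD, n = 2 each) differed by less than the spread between replicates. The log2 fold change of 0.03 (standard error 0.11) ranged from -0.069 to 0.13 when single libraries were dropped. WRKY45 (Os05g0322900, chromosome 5) had 12525 and 8385 counts in the HDS libraries, against 9154 and 9195 in the CS libraries. Its HDS replicates spanned both CS libraries, and the log2 fold change was 0.05 (standard error 0.27) and ranged from -0.22 to 0.28 when single libraries were dropped. The adjusted quasi-likelihood P in edgeR was 0.963 for WRKY13 and 0.966 for WRKY45, which does not show that their levels were equal.

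WRKY72 (Os11g0490900, chromosome 11), known to lower resistance to bacterial blight when overexpressed, was the 1 gene with both HDS libraries above both CS libraries. It had 440 and 241 counts in the HDS libraries, against 184 and 237 in the CS libraries. The margin was narrow, as the lower HDS library was 1.05 times as high as the higher CS library after scaling. WRKY72 had a log2 fold change of 0.57 (standard error 0.39), an exact P of 0.0783 and an adjusted quasi-likelihood P of 0.622 in edgeR. The log2 fold change was 0.12 without HDS replicate 1 and 0.91 without HDS replicate 2.

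**Figure D3:**
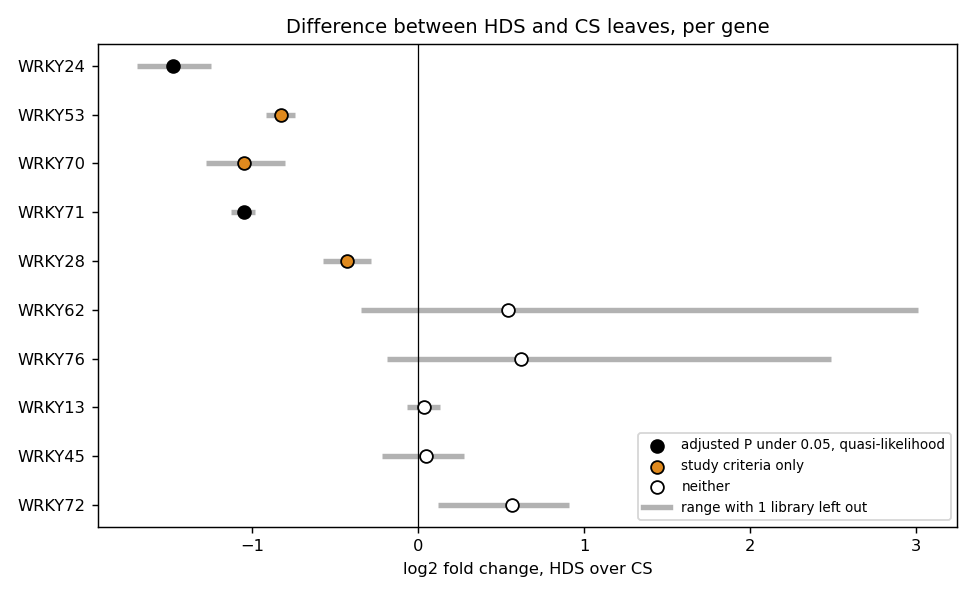
Log2 fold change of HDS over CS plants (horizontal axis) for each of the 10 genes; points are values from all 4 libraries, filled by which test the gene passed, and grey bars span the values when single libraries were dropped. The bars of the 5 lower genes stay left of 0, that of WRKY72 stays right of it, and those of WRKY62, WRKY76, WRKY13 and WRKY45 cross it.

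Ratios of counts within a library do not depend on how libraries are scaled, and 3 of the lower genes are set here against WRKY13 or WRKY45. The lower genes and their partners were taken after their values were seen, so the ratios describe these libraries and add no support. The ratio of WRKY24 to WRKY13 was 0.407 and 0.387 in the HDS libraries, against 0.918 and 1.37 in the CS libraries. The ratio of WRKY53 to WRKY45 was 0.455 and 0.568 in the HDS libraries, against 0.824 and 1.03 in the CS libraries. For WRKY71 and WRKY45 it was 0.174 and 0.239 in the HDS libraries, against 0.375 and 0.494 in the CS libraries. Each of these 3 ratios was lower in both HDS libraries than in both CS libraries. The ratio of WRKY62 to WRKY76 was 0.838 and 0.794 in the HDS libraries, against 0.917 and 0.572 in the CS libraries, a span far smaller than the 10.2-fold difference of WRKY62 between the CS replicates.

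**Figure D4:**
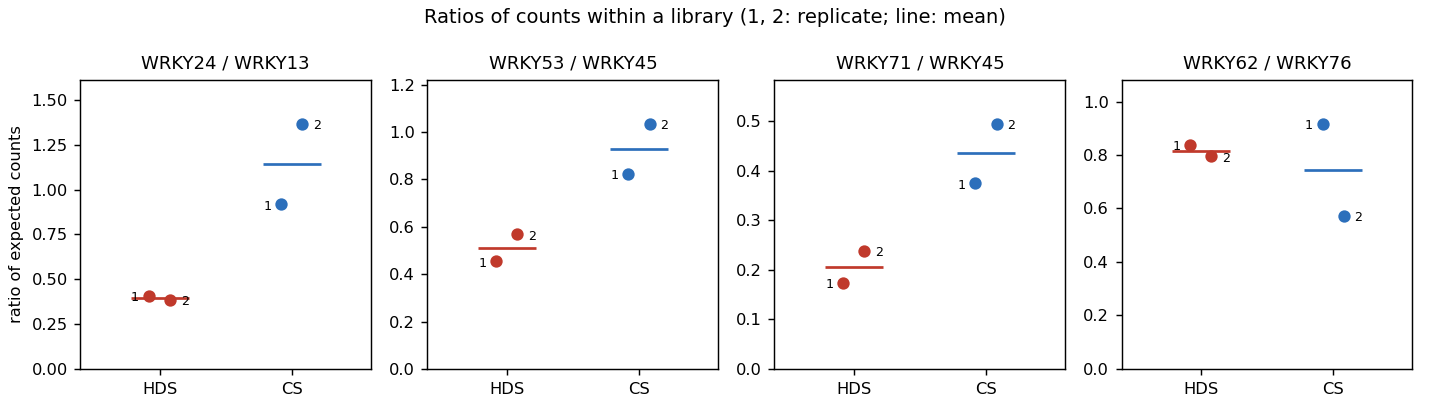
Ratios of expected counts of 2 WRKY genes within each library (vertical axes, linear, starting at 0) for HDS (red, left) and CS (blue, right); points are single libraries labelled by replicate number and lines are means of 2. The first 3 ratios are lower in both HDS libraries than in both CS libraries, and the ratio of WRKY62 to WRKY76 overlaps between treatments.

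Over all 10 genes together, 9 had more CPM in the first HDS replicate than in the second, WRKY70 being the exception, and 50.4% of the genes tested had that order. The same order was seen in 16 of 16 genes listed as defence outputs, 9 of 9 listed for jasmonate and 10 of 12 listed as upstream signalling components. In the CS libraries 4 of the 10 were higher in replicate 1, namely WRKY13, WRKY45, WRKY62 and WRKY76, where 50% of the genes tested were. Each of the 5 genes lower in HDS plants was lower in CS replicate 1 than in CS replicate 2, so CS replicate 1 was the CS plant nearer to the HDS plants for them. For WRKY62 and WRKY76 it was likewise the nearer CS plant. Profiles over the 4 libraries, centred on each gene's mean log2 CPM, were closest for WRKY13 and WRKY45 (Euclidean distance 0.228) and for WRKY53 and WRKY71 (0.241). WRKY62 and WRKY76 were 0.509 apart, and each was the nearest gene to the other. For both the next nearest was WRKY45, at 2.53 from WRKY62 and 2.03 from WRKY76.

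Genes around these regulators were read from lists written by hand, and no reference annotation used here pairs their identifiers with names. Of 12 genes listed as signalling components that act upstream of WRKY factors, 2 were lower and 0 were higher by the study's criteria, where 4.48% of the genes with enough counts were lower and 4.67% higher, and the median log2 fold change was -0.02. The lower ones were Os11g0195500, with 1189 and 965 counts in the HDS libraries, against 1609 and 2037 in the CS libraries, and Os03g0285800, with 612 and 366 counts, against 562 and 934. Of 16 genes listed as defence outputs, 5 were higher and 0 were lower by the study's criteria (4.67% and 4.48% of the genes with enough counts), with a median log2 fold change of 0.35. Both counts of this list changed when some single libraries were dropped, and so did the number of genes called among all genes. Of the 5, 2 also had an adjusted P under 0.05 in edgeR's quasi-likelihood test, in which 0.248% of all genes tested were higher. Os12g0240900 had 306 and 257 counts in the HDS libraries, against 3 and 24 in the CS libraries, and Os07g0129200 had 2580 and 1759, against 565 and 602. Both were thus high in both HDS plants, in contrast to the lower WRKY genes. Another of the 5 overlapped between treatments, with 13682 and 2740 counts in the HDS libraries, against 2758 and 817 in the CS libraries. The rest of the 5 did not overlap. Of 9 genes listed for jasmonate synthesis and its repressors, 2 were higher and 2 were lower by the study's criteria. Of the genes with enough counts, 4.67% were higher and 4.48% lower. The median log2 fold change of the 9 was 0.01.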

How the data were processed

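The authors sequenced strand-specific leaf libraries of 2 HDS and 2 CS plants and deposited RSEM expected counts per gene without normalization. The submitters' processing notes name FastQC 0.11.7, Trimmomatic, Bowtie2, RSEM and edgeR 3.26.3, with the build IRGSP-1.0. Libraries were grouped by their labels. Expected counts were rounded for edgeR 4.0.16 (TMM) and R 4.3.3. The study's criteria used exactTest on 29698 genes with at least 1 count, and the quasi-likelihood test used the 22184 that filterByExpr kept, and its P-values were adjusted over all of them (Benjamini-Hochberg). Standard errors come from log2 CPM (prior count 2) of the replicates. Both tests were tested on simulated data. Alternatives were RLE size factors, total counts, other filters, DESeq2 1.42.0, the other edgeR test, a replicate block, a prior count of 2 and each library left out. For the gene lists, leaving out libraries was added after the data had been seen. The members and lists were chosen with earlier results of these data known. All 10 members are named, and at most 2 listed genes per direction are printed by identifier. Other WRKY genes and genes of like pattern were not analysed here, since no reference annotation used here pairs identifiers with names. The WRKY names are those of the selection.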

Additional observations from a re-analysis of the deposited data

How the results depend on the processing

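The count of 2 WRKY genes lower by the adjusted quasi-likelihood test was 0 with total counts in place of TMM scaling. It was 4 with the exact test and Benjamini-Hochberg adjustment. Without CS replicate 1 the log2 fold change was above 0 for WRKY62 and WRKY76 and below 0 for WRKY24, WRKY53, WRKY70 and WRKY71. The count by the study's criteria was 5 and lay between 4 and 6 under the other settings and from 3 to 7 when single libraries were dropped. The number of all genes called at an adjusted P under 0.05 moved as well. It was 155 in the main fit, 114 with total counts and 707 with the exact test and Benjamini-Hochberg adjustment. With DESeq2 it was 551, without filterByExpr 419 and with the replicate block 532, and it also changed when single libraries were dropped. Whether the WRKY counts reflect a change particular to these genes was not tested. Directions of 4 genes turned only when a library was left out. These log2 fold changes lay between -0.069 and 0.13 for WRKY13, between -0.22 and 0.28 for WRKY45, between -0.34 and 3.01 for WRKY62 and between -0.19 and 2.49 for WRKY76. WRKY53 had an adjusted P of 6.51e-06 with DESeq2 and 0.0440 without filterByExpr. The replicates share only a number, and the deviations of same-numbered libraries had r = 0.00396 across genes. With the replicate block the adjusted count was 2, and 6 genes met the limits of the study's criteria in that fit. Of these, WRKY24, WRKY53, WRKY70 and WRKY71 were lower, while WRKY62 (log2 fold change 1.19) and WRKY76 (1.05) were higher, and WRKY28 was no longer called. For the listed genes, when single libraries were dropped, between 1 and 2 upstream genes were lower and 0 higher, between 4 and 9 defence genes were higher and between 0 and 1 lower, and 2 jasmonate genes were higher and 2 lower. The cause of these changes was not tested.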
